A study of Mus musculus with 12 samples.

Results

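Srf, the gene of serum response factor, and 9 genes of the contractile apparatus of smooth muscle and activated fibroblasts are described here across the genotypes and treatments of the study. The 10 genes were chosen by name, as Srf, Acta2, Actg2, Tagln, Cnn1, Cnn2, Myl9, Tpm1, Tpm2 and Vcl, with earlier results of these data known. All 10 were found among the 24421 genes of the count table, and all 10 were among the 15220 genes that passed the filter on low counts and were tested.

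RNA-Seq counts were examined for 12 libraries of mouse embryonic fibroblasts (MEFs), in 4 groups of 3 replicates. The question behind them is how cells with and without the transcription factors TFEB and TFE3 respond to DNA damage. Null MEFs are the control genotype, called WT in the paper, and the TFEB/TFE3 DKO MEFs had both genes edited by CRISPR. Of each genotype, 3 libraries came from control cells and 3 from cells given 100 µM etoposide, an inhibitor of topoisomerase II that causes DNA breaks, for 8 hours. The labels call the control cells untreated, while the methods describe DMSO.

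Every group grew in the same medium with serum, and the labels name no edited gene for the Null MEFs. Each genotype was an immortalized line, so that an effect of the edited genes cannot be told apart from other differences between the lines. Nothing in the labels says that the replicates were separate cultures, and the p-values measure the spread between these libraries. In bulk RNA, fewer cells of a type and less RNA per cell cannot be told apart.

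Serum response factor is a transcription factor that binds CArG boxes, short stretches of A and T bases between a pair of C and a pair of G. It works with cofactors of the myocardin family, among them MRTF-A and MRTF-B, which monomeric actin holds in the cytoplasm until it is built into filaments, and with the ternary complex factors of the Elk family, which respond to growth factor signalling. Through these partners it is known to drive genes of the actin cytoskeleton, the smooth muscle genes that fibroblasts switch on when they become contractile, and early response genes.

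The libraries of the Null control group held 66956083 to 83970210 counts assigned to genes, those of the DKO control group 66749645 to 104120871, those of the Null etoposide group 63286195 to 76125320 and those of the DKO etoposide group 45577023 to 94388705. Counts were scaled by the TMM method of edgeR, and levels are given as CPM, the count divided by the scaled library size in units of 1e6. Differences between groups are log2 fold changes from 1 model of all 12 libraries, with their standard error (SE) and a p-value adjusted over the 15220 genes, from the quasi-likelihood test of edgeR with Benjamini-Hochberg adjustment. A gene is called higher or lower where its adjusted p is below 0.05. With 3 libraries a group, the smallest two-sided p that exact permutation allows is 0.1, so no such test is given.

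The targeted genes were examined first. Tfeb was measured at 38.9, 39.2 and 42.1 CPM in the Null control libraries and at 4.6, 6.09 and 4.68 CPM in the DKO control libraries. In the etoposide libraries it stood at 11.4, 10.2 and 10.4 CPM in Null MEFs and at 1.92, 1.61 and 2.20 CPM in DKO MEFs. Each DKO library lay below each Null library of the same treatment, and the DKO level was not 0. The log2 fold change of Tfeb between the genotypes was -2.95 without etoposide (SE 0.10, edgeR adjusted p = 1.8e-13) and -2.46 after etoposide (SE 0.12, edgeR adjusted p = 9.9e-12).

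Tfe3 was measured at 115, 110 and 114 CPM in the Null control libraries and at 94.1, 93.1 and 91.0 CPM in the DKO control libraries. After etoposide its level was 68.5, 69.6 and 68.1 CPM in Null MEFs and 70.7, 71.2 and 63.4 CPM in DKO MEFs. Without etoposide the DKO libraries lay below the Null libraries, and after etoposide the genotypes overlapped. The log2 fold change of Tfe3 was -0.29 without etoposide (SE 0.04, edgeR adjusted p = 1.1e-05) and -0.01 after it (SE 0.04, edgeR adjusted p = 0.89). An edit that disrupts the protein can leave the RNA in place, so the Tfe3 level checks the labels only in part, and the label of the DKO libraries rests on Tfeb.

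The fibroblast markers were checked as well. The summed level of 10 fibroblast markers was between 5384 and 5550 CPM in the Null control libraries, between 8957 and 9257 CPM in the DKO control libraries, between 3039 and 3076 CPM after etoposide in Null MEFs and between 3568 and 3724 CPM after etoposide in DKO MEFs. Of these 10 markers, 8 were lower and 2 not past the threshold with etoposide in Null MEFs and 9 lower and 1 higher in DKO MEFs, with median log2 fold changes of -1.02 and -1.13, where 36.8% of all genes tested were lower and 41.7% higher in Null MEFs and 31.3% and 44.0% in DKO MEFs. Between the genotypes 9 were higher and 1, Thy1, lower in DKO MEFs without etoposide and 8 higher and 2 lower after it, with medians of 0.90 and 0.85, where 33.4% of all genes were higher and 34.1% lower without etoposide and 36.9% and 35.2% after it. The markers thus moved in the same directions as most of the 10 genes, and their part in the results was not tested. The most abundant was Vim, at 790 to 2752 CPM. Lum stayed below 1 CPM in all 12 libraries, and none of the 10 was at 0 in all of them. Thy1 averaged 4.21 CPM in the Null control group and 0.0365 CPM in the DKO control group, while Pdgfra averaged 20.9 and 197 CPM.

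Markers of other cell types were measured too. The 6 smooth muscle markers outside the 10 genes summed to between 65.9 and 70.7 CPM in the Null control libraries, 66.9 and 73.4 CPM in the DKO control libraries, 99.7 and 107 CPM in the Null etoposide libraries and 38.9 and 45.5 CPM in the DKO etoposide libraries. Smtn was the most abundant, at 33.2 to 68.3 CPM, and Myocd was below 1 CPM in all 12 libraries. Unlike the 10 genes, 4 of these 6 markers were higher with etoposide in each genotype. In Null MEFs 1 was lower, and in DKO MEFs 2 were. Of all genes tested, 41.7% were higher and 36.8% lower in Null MEFs, and 44.0% and 31.3% in DKO MEFs. The median log2 fold changes of the 6 markers were 3.41 in Null MEFs and 1.98 in DKO MEFs, beside 0.07 and 0.14 over all genes. Between the genotypes, without etoposide, DKO MEFs had 1 of the 6 lower and 5 not past the threshold, and after it 5 lower and 1 not past the threshold, with medians of 0.13 and -0.83. Of all genes tested, 34.1% were lower and 33.4% higher without etoposide, and 35.2% and 36.9% after it. Des averaged 2.11 CPM in the Null control group and 36.3 CPM after etoposide (log2 fold change 4.10, edgeR adjusted p = 1.2e-15), and 0.386 and 2.44 CPM in DKO MEFs (2.61, edgeR adjusted p = 9e-11). Synpo2 averaged 0.322 and 5.32 CPM in Null MEFs and 0.229 and 0.835 CPM in DKO MEFs, in the same order. Myh11 and Myocd, also among the higher markers, averaged 0.145 and 0.0328 CPM in the Null control group, so the medians rest in part on genes with few counts. Smtn averaged 62.0 and 57.0 CPM in Null MEFs and 64.8 and 37.4 CPM in DKO MEFs, without and with etoposide. Lmod1 averaged 3.56 and 1.63 CPM, and 4.06 and 1.06 CPM, in the same order. Of the 6 skeletal muscle markers 5 were below 1 CPM in all libraries, and the sum was at most 4.13 CPM. Of the 3 tested, 2 were higher and 1 lower with etoposide in each genotype, with medians of 4.22 and 3.55 in Null and DKO MEFs. The 5 cardiac muscle markers summed to at most 5.25 CPM. With etoposide all 3 that were tested were higher in Null MEFs, with a median of 4.20. In DKO MEFs 2 were higher and 1 lower, with a median of 2.75. Of the 4 pericyte markers, Cspg4 was at 104 to 340 CPM, and Kcnj8 and Abcc9 were below 1 CPM throughout. Rgs5 averaged 0.0513 CPM in the Null control group, 4.08 CPM in the DKO control group, 2.48 CPM in the Null etoposide group and 2.41 CPM in the DKO etoposide group, with log2 fold changes between the genotypes of 6.24 without etoposide (edgeR adjusted p = 1.7e-11) and -0.02 after it (edgeR adjusted p = 0.92). The 4 endothelial markers summed to at most 2.89 CPM. All 4 were higher with etoposide in each genotype, where 41.7% of all genes were higher in Null MEFs and 44.0% in DKO MEFs. Their control levels were low, with Kdr at an average of 0.0154 CPM in the Null and 0.041 CPM in the DKO control group. In DKO MEFs the Kdr libraries of the 2 treatments overlapped (edgeR adjusted p = 0.034). The 4 macrophage markers summed to at most 13.7 CPM, mostly Cd68, which averaged 1.44 CPM in the Null control group and 12 CPM after etoposide (log2 fold change 3.04, edgeR adjusted p = 2.8e-11), and 1.56 and 3.08 CPM in DKO MEFs (1.00, edgeR adjusted p = 6.1e-05). The 4 epithelial markers summed to at most 5.92 CPM. With etoposide 1 of them was higher and 1 lower in Null MEFs, and 2 higher and 1 lower in DKO MEFs. Of 3 pericyte markers tested, 2 were higher and 1 lower with etoposide in Null MEFs, and 1 higher and 2 lower in DKO MEFs. Of 3 macrophage markers tested, 3 were higher with etoposide in Null MEFs and 2 in DKO MEFs. These lists hold genes that fibroblasts express too, and their part in the results was not tested.

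The sequence around the start site was searched for the sites described above. RefSeq promoter windows, 250 bases before to 50 bases after the start site on GRCm38.p6, were matched for 8 of the 10 genes, all but Actg2 and Tagln. Both strands were searched for the CArG box, and for CArG-like stretches whose core of 6 bases departs from A or T once. A CArG box was found in the windows of 4 genes, in Srf at 82 and 62 bases before the start site, in Cnn2 at 56, in Myl9 at 161 and in Vcl at 227. Acta2 had CArG-like stretches at 84 and 34 bases before its start, and Myl9 had such a stretch at 99. The windows of Cnn1, Tpm1 and Tpm2 held neither. For comparison, a CArG box was present in 1.63% of all 32851 windows of this length, and a CArG-like stretch in 8.50%. The E-box CACGTG, the core of the sites that TFEB and TFE3 bind, was in none of the 8 windows and in 7.15% of all windows. A match describes the letters and says nothing of binding in these cells, and a window without a match says only that these letters are not in it.

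**Figure D1:**
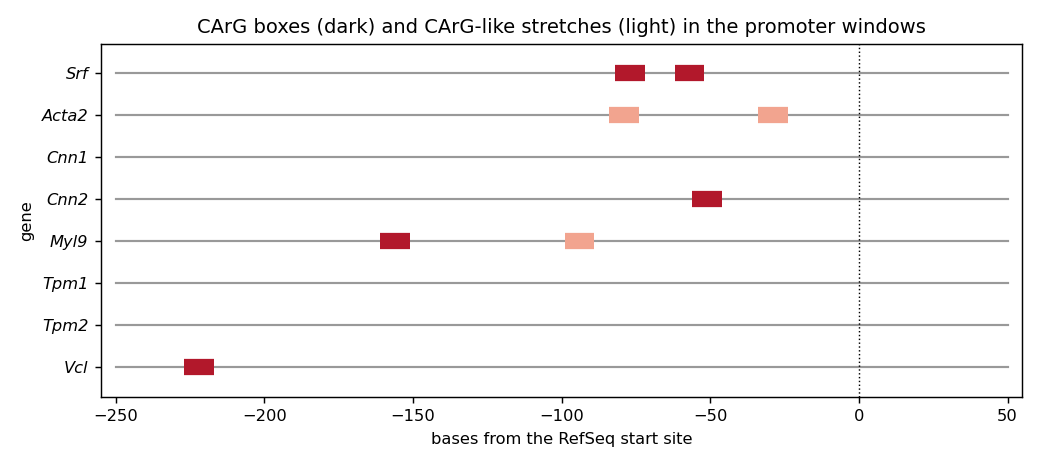
CArG boxes (dark) and CArG-like stretches (light) in the promoter windows of 8 genes, drawn by distance in bases from the RefSeq start site. Srf, Cnn2, Myl9 and Vcl hold a CArG box, Acta2 holds CArG-like stretches only, and Cnn1, Tpm1 and Tpm2 hold neither.

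The 5 windows with a match are shown in full, because they hold the letters that SRF is known to bind or letters close to them, with the CArG box or CArG-like stretch in capitals and each sequence written 5′ to 3′ on the strand of its gene. They lie at chr17:46556113-46556412 on the minus strand for Srf, chr19:34255324-34255623 on the minus strand for Acta2, chr10:79988350-79988649 on the plus strand for Cnn2, chr2:156775214-156775513 on the plus strand for Myl9 and chr14:20929148-20929447 on the plus strand for Vcl.
Srf: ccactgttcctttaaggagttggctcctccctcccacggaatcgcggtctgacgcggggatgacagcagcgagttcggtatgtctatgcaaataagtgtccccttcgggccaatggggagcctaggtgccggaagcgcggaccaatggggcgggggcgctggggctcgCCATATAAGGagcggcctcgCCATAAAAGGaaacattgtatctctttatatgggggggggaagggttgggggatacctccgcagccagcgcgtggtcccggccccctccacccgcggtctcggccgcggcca
Acta2: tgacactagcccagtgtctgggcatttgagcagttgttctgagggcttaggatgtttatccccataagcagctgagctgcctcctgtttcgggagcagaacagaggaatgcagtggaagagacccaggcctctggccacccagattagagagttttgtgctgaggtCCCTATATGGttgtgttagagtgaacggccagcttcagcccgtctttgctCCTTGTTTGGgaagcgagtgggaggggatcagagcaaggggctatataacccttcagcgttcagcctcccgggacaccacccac
Cnn2: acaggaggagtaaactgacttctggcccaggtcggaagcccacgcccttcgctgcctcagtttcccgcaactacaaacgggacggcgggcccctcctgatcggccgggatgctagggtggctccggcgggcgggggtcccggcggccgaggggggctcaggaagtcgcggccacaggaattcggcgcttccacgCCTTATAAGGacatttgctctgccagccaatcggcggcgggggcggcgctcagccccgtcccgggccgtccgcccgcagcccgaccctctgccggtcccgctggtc
Myl9: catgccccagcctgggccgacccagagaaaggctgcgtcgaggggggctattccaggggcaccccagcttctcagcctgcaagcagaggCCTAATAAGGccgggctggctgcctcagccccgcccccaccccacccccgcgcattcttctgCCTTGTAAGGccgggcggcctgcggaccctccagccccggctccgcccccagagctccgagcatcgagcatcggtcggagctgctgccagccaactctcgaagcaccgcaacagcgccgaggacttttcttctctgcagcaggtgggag
Vcl: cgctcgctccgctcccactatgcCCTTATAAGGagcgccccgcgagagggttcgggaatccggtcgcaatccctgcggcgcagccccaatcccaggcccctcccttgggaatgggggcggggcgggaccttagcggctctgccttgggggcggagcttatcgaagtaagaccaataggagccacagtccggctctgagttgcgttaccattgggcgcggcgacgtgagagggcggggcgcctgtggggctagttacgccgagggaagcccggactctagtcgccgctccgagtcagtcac

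Srf itself lies on chromosome 17, from 46548329 to 46556175 in GENCODE on GRCm38, and has a pair of CArG boxes before its own start. Its level was 285, 267 and 282 CPM in the Null control libraries and 358, 367 and 350 CPM in the DKO control libraries. After etoposide it was 83.7, 79.7 and 87.0 CPM in Null MEFs and 107, 105 and 106 CPM in DKO MEFs. No library of any group fell within the range of another group, and the order from high to low was DKO control, Null control, DKO etoposide, Null etoposide. With etoposide the log2 level of Srf changed by -1.73 in Null MEFs (SE 0.04, edgeR adjusted p = 4.7e-16) and by -1.76 in DKO MEFs (SE 0.04, edgeR adjusted p = 4.2e-16). The difference between these changes was -0.02 (95% interval -0.14 to 0.09, edgeR adjusted p = 0.74), with a sign that turned positive when counts were scaled by library size alone. Of the 15220 genes tested, 276 had a lower log2 fold change than Srf with etoposide in Null MEFs, and 412 in DKO MEFs. Between the genotypes Srf was higher in DKO MEFs by 0.37 without etoposide (SE 0.04, edgeR adjusted p = 2.2e-07) and by 0.34 after it (SE 0.04, edgeR adjusted p = 5.1e-07), both on the log2 scale.

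**Figure D2:**
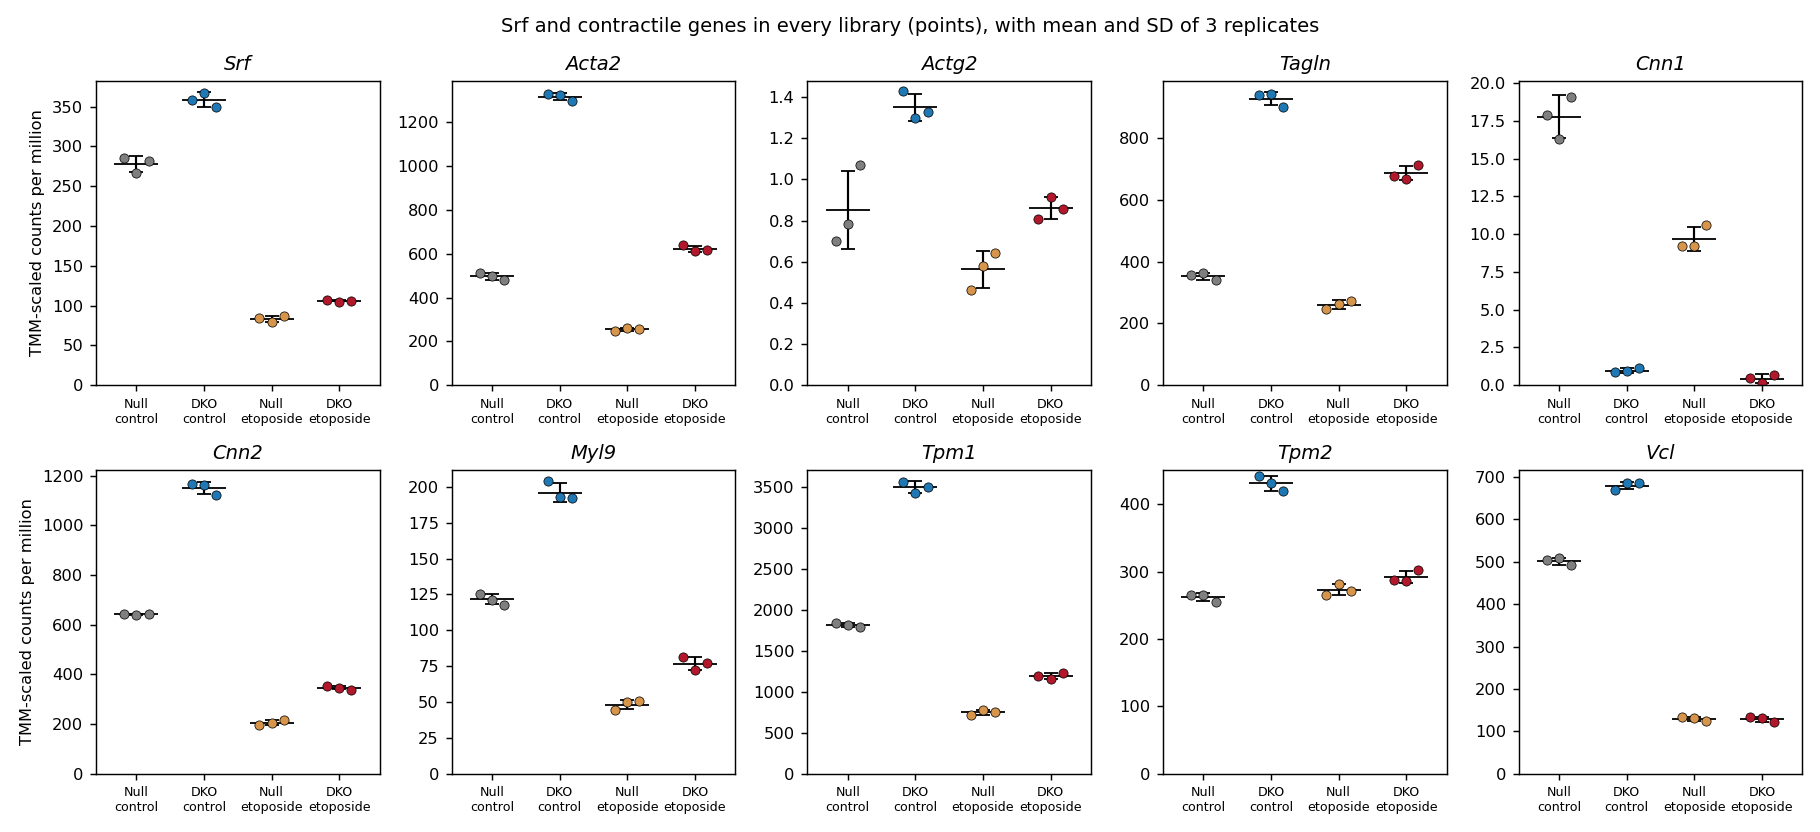
Level of each of the 10 genes in TMM-scaled CPM, with each library as a point and the mean and SD of the 3 replicates of each group. In 9 of the 10 genes the DKO control libraries are the highest, and in Cnn1 the Null control libraries are.

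Acta2 encodes smooth muscle alpha-actin, the actin that marks contractile fibroblasts, and lies on chromosome 19 from 34241090 to 34255590. It was measured at 513, 500 and 482 CPM in the Null control libraries and at 1329, 1326 and 1299 CPM in the DKO control libraries. The etoposide libraries held 248, 261 and 254 CPM in Null MEFs and 638, 614 and 619 CPM in DKO MEFs. The groups did not overlap, and here the DKO etoposide libraries stood above the Null control libraries. Acta2 fell by 0.97 on the log2 scale with etoposide in Null MEFs (SE 0.03, edgeR adjusted p = 2.8e-14) and by 1.08 in DKO MEFs (SE 0.03, edgeR adjusted p = 1e-14). It was higher in DKO than in Null MEFs by 1.40 without etoposide (SE 0.03, edgeR adjusted p = 5.6e-16) and by 1.29 after it (SE 0.03, edgeR adjusted p = 2.2e-15), as log2 fold changes. The difference of the etoposide changes between the genotypes was -0.11 (SE 0.04, edgeR adjusted p = 0.045), close to the threshold, and it was 0.00 with library size alone. It was not past the threshold either without Null control replicate 2 (-0.11) or 3 (-0.08), DKO control replicate 1 (-0.12) or 3 (-0.12), Null etoposide replicate 2 (-0.09) or 3 (-0.11) or DKO etoposide replicate 2 (-0.11).

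Actg2 encodes smooth muscle gamma-actin, found mainly in visceral smooth muscle, and lies on chromosome 6 from 83512905 to 83536265. Its counts were low, with 51 to 69 in the Null control libraries, 79 to 120 in the DKO control libraries, 38 to 48 in the Null etoposide libraries and 40 to 86 in the DKO etoposide libraries. As levels these are 0.700, 0.784 and 1.07 CPM, then 1.43, 1.30 and 1.33 CPM, then 0.464, 0.581 and 0.642 CPM, and then 0.809, 0.915 and 0.854 CPM, in the same order of groups. The DKO control libraries were the highest and the Null etoposide libraries the lowest, and the DKO etoposide libraries overlapped the Null control libraries. Etoposide changed Actg2 by -0.59 in Null MEFs (SE 0.25, edgeR adjusted p = 0.038) and by -0.65 in DKO MEFs (SE 0.23, edgeR adjusted p = 0.020) on the log2 scale. The genotypes differed by 0.67 without etoposide (SE 0.24, edgeR adjusted p = 0.018) and by 0.62 after it (SE 0.25, edgeR adjusted p = 0.034). These values have wide errors, and each of the 4 calls was lost under some alternative. The calls in Null MEFs and between the genotypes after etoposide were each lost in 8 of 13 alternatives, among them DESeq2 (adjusted p = 0.053 and 0.052), DESeq2 size factors (adjusted p = 0.053 for both) and only the 6 libraries compared (adjusted p = 0.077 and 0.064). The call in Null MEFs was also lost with library size alone (-0.43, adjusted p = 0.13), as was that in DKO MEFs (-0.38, adjusted p = 0.15), and the call after etoposide with no filter (0.60, adjusted p = 0.069). Of single libraries left out, in Null MEFs the call was lost without Null etoposide replicate 1 (-0.48), between the genotypes without Null control replicate 1 (0.55), and after etoposide without Null etoposide replicate 1 (0.49), with the other libraries named in the closing section.

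Per kilobase of exon, Acta2 averaged 227 ± 7.1 CPM in the Null control group (SD, n = 3), against 0.546 ± 0.12 CPM for Actg2. The cytoplasmic actins were far above both on this scale, with Actb at 2998 ± 60 CPM per kilobase (SD, n = 3) in the same group. Among the 10 genes the level per kilobase in the Null control group was highest for Tpm1, at 280 ± 3.6 CPM, followed by Cnn2 at 261 ± 0.52 CPM and Acta2. In the DKO control group Acta2 led, at 600 ± 7.7 CPM per kilobase, before Tpm1 at 539 ± 11 CPM (SD, n = 3 each). Srf stood at 96.0 ± 3.3 CPM per kilobase in the Null control group, Vcl at 61.2 ± 1.1 CPM, and Cnn1 at 6.49 ± 0.51 CPM (SD, n = 3 each). The length used is that of all annotated exons of a gene together, 6485 bases for Tpm1 and 2196 for Acta2. It is not that of the transcripts expressed here, and the order of the genes depends on it.

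Tagln encodes transgelin, or SM22-alpha, a small protein that binds and bundles actin filaments, and lies on chromosome 9 from 45929619 to 45936058. The Null control libraries held 357, 363 and 340 CPM and the DKO control libraries 940, 943 and 903 CPM. With etoposide the level was 247, 262 and 274 CPM in Null MEFs and 679, 669 and 715 CPM in DKO MEFs. As for Acta2, the groups were apart and the DKO etoposide libraries lay above the Null control libraries. Tagln changed with etoposide by -0.44 in Null MEFs (SE 0.04, edgeR adjusted p = 3.4e-08) and by -0.43 in DKO MEFs (SE 0.04, edgeR adjusted p = 4.8e-08), as log2 fold changes. DKO MEFs were higher by 1.39 without etoposide (SE 0.04, edgeR adjusted p = 1.7e-14) and by 1.40 after it (SE 0.04, edgeR adjusted p = 1.9e-14) on the log2 scale.

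The exons of Tagln overlap genes on the opposite strand, with 62.4% of its exon bases shared with the antisense gene Gm48529 and 5.4% with Pcsk7. The strand setting of the counting is not stated, so the counts of Tagln are uncertain to that extent. Pcsk7 itself was measured at 39.6 to 68.2 CPM over the 12 libraries, below Tagln in each. Gm48529 is not among the genes of the count table, so no level can be given for it.

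Cnn1 encodes calponin 1, an actin-binding protein of differentiated smooth muscle, and lies on chromosome 9 from 22099216 to 22109630. It was measured at 17.9, 16.3 and 19.1 CPM in the Null control libraries and at 0.857, 0.902 and 1.12 CPM in the DKO control libraries. After etoposide the level was 9.23, 9.19 and 10.6 CPM in Null MEFs and 0.486, 0.123 and 0.675 CPM in DKO MEFs, the latter from 24, 9 and 68 counts. Cnn1 was the only gene of the 10 with every Null library above every DKO library, whatever the treatment. Its log2 fold change between DKO and Null MEFs was -4.22 without etoposide (SE 0.22, edgeR adjusted p = 3.4e-11) and -4.43 after etoposide (SE 0.25, edgeR adjusted p = 7e-11). With etoposide it fell by 0.88 on the log2 scale in Null MEFs (SE 0.17, edgeR adjusted p = 0.00022, but 0.12 with limma-trend at the same -0.88) and by 1.09 in DKO MEFs (SE 0.31, edgeR adjusted p = 0.0050). The size of the fall in DKO MEFs was moved by single libraries, with a log2 fold change of -0.67 without DKO etoposide replicate 2 and -1.81 without DKO etoposide replicate 3, both past the threshold. Between the genotypes after etoposide the log2 fold change was -4.01 and -5.15 without these libraries, in the same order, and past the threshold each time. The difference between the etoposide changes was -0.22 with a 95% interval from -0.98 to 0.55, which leaves its direction undetermined.

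Cnn2 encodes calponin 2, the form found in many cell types including fibroblasts, and lies on chromosome 10 from 79988584 to 79996062, with a CArG box in the window shown. It was measured at 643, 641 and 643 CPM in the Null control libraries and at 1168, 1162 and 1124 CPM in the DKO control libraries. The etoposide libraries had 196, 203 and 216 CPM in Null MEFs and 352, 347 and 339 CPM in DKO MEFs. All groups were apart, in the same order as for Srf. Thus in the same libraries Cnn1 and Cnn2 differed between the genotypes in opposite directions, with Cnn2 higher in DKO MEFs by 0.84 without etoposide (SE 0.03, edgeR adjusted p = 1.2e-12) and by 0.76 after it (SE 0.03, edgeR adjusted p = 4.5e-12) on the log2 scale. The third calponin gene, Cnn3, was lower in DKO MEFs, as Cnn1 was, with log2 fold changes of -0.26 without etoposide (edgeR adjusted p = 6e-07) and -0.32 after it (edgeR adjusted p = 5.6e-08). Etoposide changed Cnn2 by -1.65 in Null MEFs (SE 0.04, edgeR adjusted p = 2e-16) and by -1.73 in DKO MEFs (SE 0.04, edgeR adjusted p = 1.3e-16), as log2 fold changes.

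Myl9 encodes a regulatory light chain of smooth muscle and nonmuscle myosin, whose phosphorylation drives contraction, and lies on chromosome 2 from 156775420 to 156781658. Its level was 125, 121 and 118 CPM in the Null control libraries and 204, 193 and 192 CPM in the DKO control libraries. After etoposide there were 44.5, 49.7 and 50.4 CPM in Null MEFs and 81.2, 72.2 and 77.2 CPM in DKO MEFs. The groups did not overlap and followed the order of Srf and Cnn2. Myl9 fell with etoposide by 1.34 on the log2 scale in Null MEFs (SE 0.05, edgeR adjusted p = 3e-13) and by 1.35 in DKO MEFs (SE 0.05, edgeR adjusted p = 3.3e-13). It was higher in DKO MEFs by 0.69 without etoposide (SE 0.05, edgeR adjusted p = 2.4e-09) and by 0.67 after it (SE 0.05, edgeR adjusted p = 3.7e-09) on that scale.

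Tropomyosins lie along actin filaments and govern the access of myosin. Tpm1, on chromosome 9 from 67022590 to 67049406, was measured at 1842, 1813 and 1796 CPM in the Null control libraries and at 3564, 3425 and 3503 CPM in the DKO control libraries. With etoposide its level was 712, 780 and 757 CPM in Null MEFs and 1190, 1153 and 1231 CPM in DKO MEFs. These groups were apart as well, again in the order seen for Srf. The fall of Tpm1 with etoposide was larger in DKO MEFs, with a log2 fold change of -1.55 (SE 0.03, edgeR adjusted p = 2.3e-16) against -1.28 in Null MEFs (SE 0.03, edgeR adjusted p = 1.9e-15), and the difference of -0.28 was past the threshold (SE 0.05, edgeR adjusted p = 7.5e-05). Between the genotypes Tpm1 differed by 0.94 without etoposide (SE 0.03, edgeR adjusted p = 1.4e-13) and by 0.67 after it (SE 0.03, edgeR adjusted p = 1.1e-11).

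Tpm2, on chromosome 4 from 43514711 to 43523765, differed from Tpm1. It was measured at 265, 266 and 255 CPM in the Null control libraries and at 265, 281 and 272 CPM after etoposide in the same genotype. In DKO MEFs the control libraries held 442, 431 and 420 CPM and the etoposide libraries 288, 286 and 302 CPM. The Null groups overlapped, while the DKO control libraries stood above all others and the DKO etoposide libraries lay just above the Null etoposide libraries. In Null MEFs the log2 fold change with etoposide was 0.06 (95% interval -0.02 to 0.13, edgeR adjusted p = 0.14), and it was past the threshold as a rise under 4 other settings. In DKO MEFs Tpm2 fell by 0.56 on the log2 scale (SE 0.04, edgeR adjusted p = 2.9e-10). The difference of -0.62 between these changes was the largest among the 10 genes (SE 0.05, edgeR adjusted p = 2e-08). The genotypes differed by 0.72 without etoposide (SE 0.04, edgeR adjusted p = 1.4e-11) and by 0.10 after it (SE 0.04, edgeR adjusted p = 0.019). The latter was not past the threshold with DESeq2 (0.04, adjusted p = 0.28), nor without Null etoposide replicate 1 (0.07) or DKO etoposide replicate 1 (0.09) or 3 (0.06).

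Vcl encodes vinculin, which links actin filaments to cell adhesions under tension, and lies on chromosome 14 from 20929398 to 21033676. It was measured at 504, 509 and 492 CPM in the Null control libraries and at 670, 686 and 685 CPM in the DKO control libraries. After etoposide the level was 134, 132 and 125 CPM in Null MEFs and 133, 132 and 121 CPM in DKO MEFs. The control groups were apart from each other and far above the etoposide groups, which overlapped. Vcl had the lowest log2 fold change of the 10 genes with etoposide in both genotypes, at -1.95 in Null MEFs (SE 0.04, edgeR adjusted p = 1.4e-16) and -2.41 in DKO MEFs (SE 0.04, edgeR adjusted p = 1.6e-17). Only 167 of the 15220 genes changed further down in Null MEFs, and 144 in DKO MEFs. The changes differed by -0.46 between the genotypes (SE 0.05, edgeR adjusted p = 2e-06). DKO MEFs were higher by 0.44 without etoposide (SE 0.04, edgeR adjusted p = 2.5e-08), and after etoposide the difference was -0.02 (95% interval -0.10 to 0.06, edgeR adjusted p = 0.66).

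The exons of Vcl share 25.5% of their bases with Ap3m1 on the opposite strand, which bears on its counts in the same way as for Tagln. Ap3m1 was measured at 44.4 to 58.1 CPM over the 12 libraries and was not past the threshold in any of the 5 comparisons. No stretch of 75 bases in the transcripts of the other 8 genes occurred in another gene.

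Because the 10 genes were chosen with earlier results of these data known, the shares of all genes beside their counts serve as description only. Counted over the 10 genes, 9 were lower with etoposide in Null MEFs and 0 were higher, where 36.8% of all genes tested were lower and 41.7% higher. In DKO MEFs 10 were lower and 0 higher, against 31.3% and 44.0% of all genes. The median log2 fold change of the 10 genes was -1.12 in Null MEFs and -1.22 in DKO MEFs, beside medians of 0.07 and 0.14 over all genes. DKO MEFs were higher than Null MEFs for 9 genes and lower for 1 without etoposide, where 33.4% of all genes were higher and 34.1% lower, and the median was 0.70 beside -0.02 for all genes. After etoposide 8 were higher and 1 lower, against 36.9% and 35.2% of all genes, with a median of 0.64 beside 0.00. The difference of the etoposide changes was past the threshold for 4 of the 10 genes, Acta2, Tpm1, Tpm2 and Vcl, which were lower, and for 0 higher, while 24.7% of all genes were lower and 29.9% higher. The median of this difference was -0.10 beside 0.05 for all genes, and 0.01 with library size alone. Beside each count of 0 higher, the count at an unadjusted p below 0.05 was also 0 in edgeR, and so was the count with limma-trend, while DESeq2 gave 1 higher gene, Tpm2, with etoposide in Null MEFs and 0 in the other cases. The etoposide comparisons share no library with each other. Each etoposide comparison shares its control libraries with the comparison of the genotypes without etoposide, and its etoposide libraries with that after etoposide. The difference of the etoposide changes rests on all 12 libraries.

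**Figure D3:**
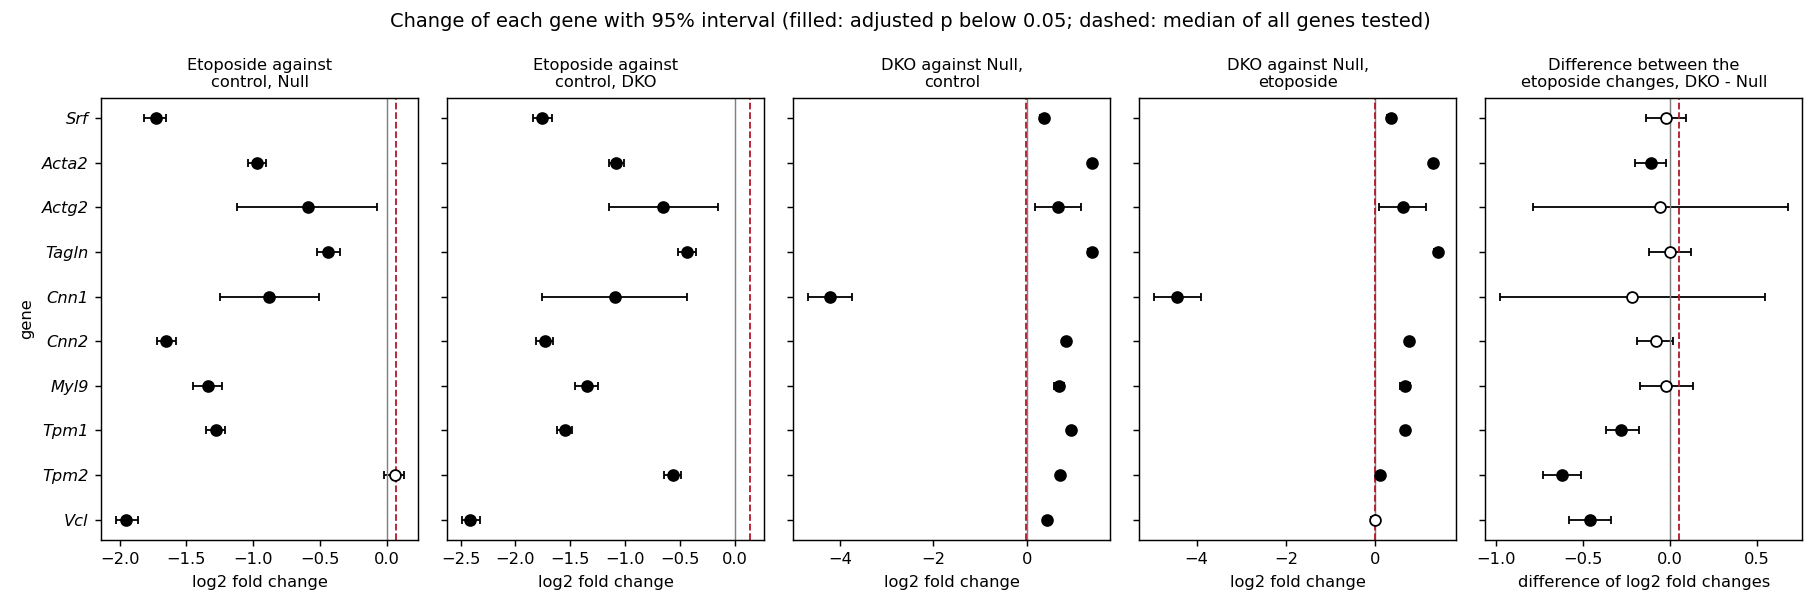
Log2 fold change of each of the 10 genes in the 4 comparisons between groups and the difference of the etoposide changes between the genotypes, with 95% intervals. Filled points are past the adjusted threshold of 0.05, and dashed lines mark the median of all genes tested. With etoposide 9 of the 10 genes in Null MEFs and all 10 in DKO MEFs lie at or below -0.43.

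How far these counts rest on the scaling was examined. Scaled by library size alone, the median of all genes moved by 0.17 with etoposide in Null MEFs, 0.27 in DKO MEFs, -0.12 between the genotypes without etoposide, -0.02 after etoposide and 0.10 for the difference of the changes, all on the log2 scale. The share of higher calls among all calls went from 53.1 to 63.8% with etoposide in Null MEFs, from 58.5 to 75.9% in DKO MEFs, from 49.5 to 38.2% between the genotypes without etoposide and from 54.8 to 65.0% for the difference. With DESeq2 size factors this share went from 51.2 to 46.0% between the genotypes after etoposide and from 54.8 to 47.7% for the difference, so that the majority of the calls turned to lower in both. Library size alone also turned it to lower, narrowly, between the genotypes after etoposide, at 49.9% (5451 higher, 5477 lower). With library size alone the etoposide medians of the 10 genes were -0.96 in Null MEFs and -0.95 in DKO MEFs, and the median between the genotypes without etoposide was 0.58, against -1.08, -1.24 and 0.71 with DESeq2 size factors. In the 4 comparisons between groups no gene of the 10 changed its direction under DESeq2 size factors or library size alone. For the difference of the changes, Tagln turned negative with DESeq2 size factors, and Srf, Actg2, Cnn2 and Myl9 turned positive with library size alone, none of them past the threshold.

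Summed over the 10 genes, the Null control libraries held 4553, 4496 and 4429 CPM and the DKO control libraries 8679, 8536 and 8478 CPM. After etoposide the sums were 1939, 2057 and 2046 CPM in Null MEFs and 3469, 3380 and 3510 CPM in DKO MEFs. The groups were apart, and Tpm1 alone made up the largest portion of each sum. The order of the groups was the same for 4 genes, Srf, Cnn2, Myl9 and Tpm1, and differed for the others. Acta2, Actg2 and Tagln had DKO etoposide above Null control on average, Cnn1 had both Null groups on top, and Tpm2 and Vcl had a pair of groups that overlapped.

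**Figure D4:**
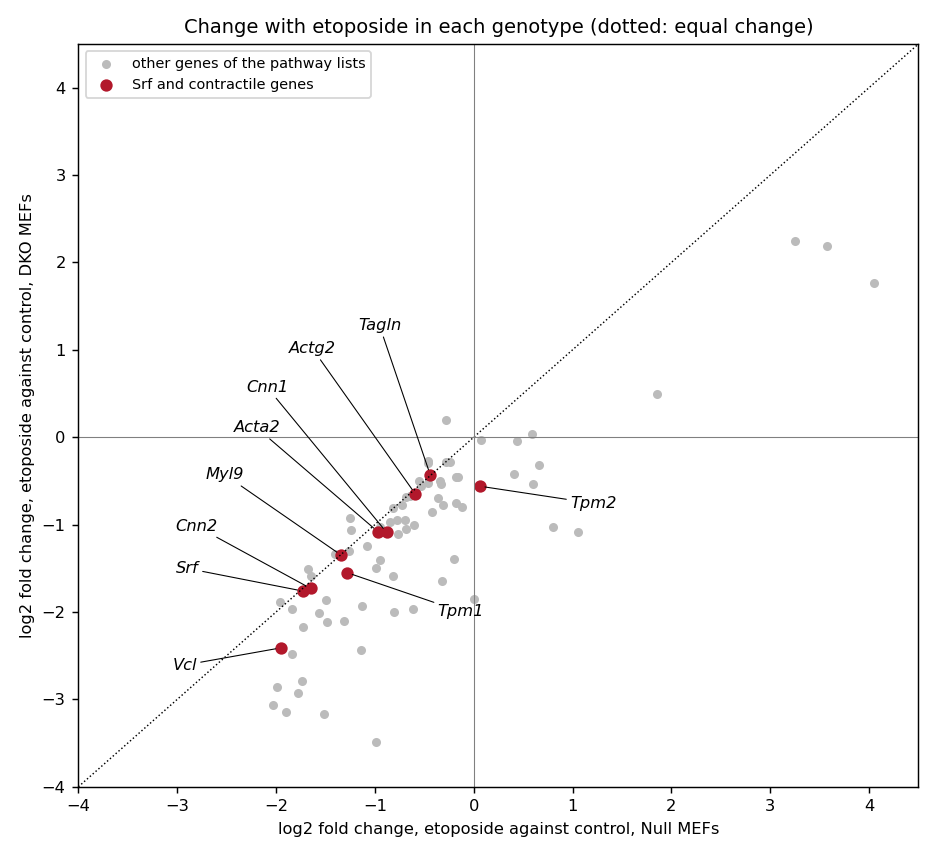
Log2 fold change with etoposide in Null MEFs (horizontal) and in DKO MEFs (vertical) for the 10 genes and for the other genes of the 6 pathway lists, with equal change dotted. Srf, Cnn2, Myl9, Tagln and Actg2 lie near the dotted line, and Tpm1, Tpm2 and Vcl below it.

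Genes whose pattern was most like that of Srf were sought by the Pearson r of log2 CPM over the 12 libraries, among 9345 genes outside the 10 with a mean of at least 10 CPM. The libraries fall into 4 groups, so r describes mainly the group means and carries no p. The highest values were those of Klf9 (r = 0.9996), Actn1 (0.9979), Cttn (0.9973), Mprip (0.9972) and Anxa6 (0.9972). Klf9 averaged 89.3 CPM in the Null control group, 117 in the DKO control group, 21.0 in the Null etoposide group and 28.8 in the DKO etoposide group. For Acta2 the closest were Prss23 (0.9985), Lox (0.9984), Rlim (0.9978), Serpinh1 (0.9975) and Adamtsl3 (0.9971). Most of these genes closest to Acta2 were replaced by others with library size alone, as the closing section gives. Lox averaged 442 and 1363 CPM in the control groups and 217 and 605 CPM after etoposide, in Null and DKO MEFs respectively. Among the 10 genes, Vcl had an r of 0.9876 with Srf, Cnn2 0.9704, Myl9 0.9611 and Tpm1 0.9455. The others had lower values, Actg2 0.7681, Acta2 0.7510, Tpm2 0.5733, Tagln 0.4820 and Cnn1 0.0481. With Acta2, r was 0.9383 for Tagln, 0.9281 for Actg2, 0.9183 for Tpm1, 0.8981 for Myl9 and 0.8869 for Cnn2. It was 0.8494 for Tpm2, 0.7510 for Srf, 0.6776 for Vcl and -0.6042 for Cnn1. Many genes outside the 10 had a higher r with Srf, of the 9345 129 above Vcl, 399 above Cnn2, 552 above Myl9 and 796 above Tpm1. There were 2468 above Actg2, 2571 above Acta2, 3493 above Tpm2, 3891 above Tagln and 5317 above Cnn1. For Acta2, 615 had a higher r than Tagln.

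The cofactors of SRF were measured from a list of 6 genes. Mrtfa, listed under its older symbol Mkl1, was measured at 61.0, 61.3 and 62.9 CPM in the Null control libraries and 75.8, 79.3 and 71.9 CPM in the DKO control libraries. After etoposide it was at 24.8, 20.3 and 20.7 CPM in Null MEFs and 22.0, 21.1 and 19.5 CPM in DKO MEFs. As for Vcl, the control groups were apart and the etoposide groups overlapped. Mkl1 fell by 1.49 on the log2 scale in Null MEFs (SE 0.07, edgeR adjusted p = 1.6e-12) and by 1.86 in DKO MEFs (SE 0.07, edgeR adjusted p = 1.5e-13), and the difference was -0.37 (SE 0.09, edgeR adjusted p = 0.0027). Mrtfb, listed as Mkl2, fell by 0.85 in Null MEFs (edgeR adjusted p = 3.3e-10) and by 0.97 in DKO MEFs (edgeR adjusted p = 7.1e-11), without overlap of the libraries. It was higher in DKO MEFs by 0.42 without etoposide (edgeR adjusted p = 3.1e-06) and by 0.29 after it (edgeR adjusted p = 0.00017).

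The ternary complex factors differed among themselves. Elk3 was at 143, 140 and 139 CPM in the Null control libraries, 263, 262 and 262 CPM in the DKO control libraries, 81.1, 80.7 and 79.1 CPM in the Null etoposide libraries and 66.5, 62.1 and 68.4 CPM in the DKO etoposide libraries. DKO MEFs were thus highest without etoposide and lowest after it, with no overlap. Elk3 changed with etoposide by -0.81 in Null MEFs (SE 0.04, edgeR adjusted p = 3e-12) and -2.0 in DKO MEFs (SE 0.04, edgeR adjusted p = 7.2e-17), a difference of -1.19 (SE 0.05, edgeR adjusted p = 1.4e-11). Elk1 was higher in DKO MEFs by 0.75 without etoposide (edgeR adjusted p = 3.2e-11) and by 0.81 after it (edgeR adjusted p = 1.5e-11), and changed with etoposide by -0.55 in Null MEFs (edgeR adjusted p = 1.6e-09) and -0.50 in DKO MEFs (edgeR adjusted p = 5.6e-09). Elk4 was higher in DKO MEFs by 0.40 and 0.57 (edgeR adjusted p = 6.2e-06 and 8.8e-08) and fell with etoposide by 0.46 and 0.29 on the log2 scale (edgeR adjusted p = 1.1e-06 and 0.00017). Myocd, the founding member of the myocardin family, had 0 to 8 counts in the control libraries and 6 to 31 after etoposide, and no fold change is given for it.

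Counted over the list of 6 cofactors, 1 was higher, Myocd, and 5 lower with etoposide in each genotype, with medians of -0.68 in Null and -0.74 in DKO MEFs. Without etoposide 5 were higher and 0 lower in DKO MEFs, also at an unadjusted p and with DESeq2 and limma-trend, and after etoposide 3 were higher and 1 lower, with medians of 0.41 and 0.11. The median of all genes in each comparison and the shares of all genes higher and lower are those given for the 10 genes, and they serve the lists that follow too.

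Of 11 actins and myosins, 10 were tested, since Actc1 was below the filter. Actb, the cytoplasmic beta-actin and itself a known SRF target, was at 8207, 7991 and 7895 CPM in the Null control libraries, 11564, 11466 and 11334 CPM in the DKO control libraries, 5469, 5676 and 5543 CPM in the Null etoposide libraries and 7876, 7718 and 7709 CPM in the DKO etoposide libraries. Its libraries did not overlap between any 2 groups compared. Actb fell with etoposide by 0.53 on the log2 scale in Null MEFs (SE 0.02, edgeR adjusted p = 2.1e-13) and by 0.56 in DKO MEFs (SE 0.02, edgeR adjusted p = 1.5e-13), and was higher in DKO MEFs by 0.51 (SE 0.02, edgeR adjusted p = 6.4e-13) and 0.48 (SE 0.02, edgeR adjusted p = 1.4e-12). Actg1, the cytoplasmic gamma-actin, was at 4759, 6558 and 4977 CPM in the Null control libraries and 4739, 4905 and 4859 CPM in the DKO control libraries, where Null control replicate 2 stood apart. After etoposide it was at 2281, 2350 and 2288 CPM in Null MEFs and 2391, 2423 and 2163 CPM in DKO MEFs. It fell by 1.24 and 1.06 on the log2 scale (edgeR adjusted p = 3.9e-10 and 4.4e-09), and the genotypes overlapped under both treatments. Processed copies of these actin genes exist elsewhere in the genome, so their counts are uncertain where reads fit both.

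The values of single genes in this and the following lists are log2 fold changes past the edgeR threshold, with no overlap of the libraries compared. With etoposide 1 gene of the 10 actins and myosins tested, Myh11, was higher in each genotype, while 7 were lower in Null MEFs and 8 in DKO MEFs, with medians of -0.44 and -0.75. Myh9, the heavy chain of nonmuscle myosin IIA, had the lowest log2 fold changes of the list, -1.57 and -2.01, and Myh10, that of myosin IIB, changed by -1.41 in DKO MEFs. Between the genotypes 6 were higher and 2 lower without etoposide and 5 higher and 4 lower after it, with medians of 0.37 and 0.12. Myh10 was higher in DKO MEFs by 0.69 and 0.23 on the log2 scale. Myl12b differed by -0.96 and -1.07, Myh9 by -0.17 without etoposide, and Mylk, the kinase of the light chain, by -0.77 after it. Myl12a and Myl12b are near copies of each other, and the split of reads between them is uncertain.

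Thin filament and stress fibre genes outside the 10 numbered 19, all tested. With etoposide 17 were lower and 1, Synpo2, higher in Null MEFs, with a median of -0.73, and 18 lower and 1 higher in DKO MEFs, with a median of -1.05. Pdlim5, a protein of the Z-line and stress fibres, changed by -2.03 and -3.06 in Null and DKO MEFs, and Cald1, caldesmon, by -1.84 and -2.48, as log2 fold changes. Between the genotypes 10 were higher and 4 lower without etoposide, with a median of 0.16, and 6 higher and 11 lower after it, with a median of -0.32. With library size alone, 8 were higher and 5 lower without etoposide, with a median of 0.04. Filip1l and Csrp1 were higher in DKO MEFs by 1.44 and 0.83 without etoposide, and Flna, filamin A, and Csrp1 by 0.54 and 0.46 after it. Flnc, the filamin of muscle, was lower in DKO MEFs under both treatments, with log2 fold changes of -1.85 and -1.66. Lima1 differed by -1.07 after etoposide. Tpm3 differed by -0.29 without it, past the threshold, and was not past it with DESeq2 (-0.29, adjusted p = 0.11), limma-trend (-0.29, adjusted p = 0.17) or DESeq2 size factors (-0.29, adjusted p = 0.052), nor without Null control replicate 1 (-0.26) or 2 (-0.27) or DKO control replicate 1 (-0.31), 2 (-0.29) or 3 (-0.28).

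Focal adhesion genes, 15 in number, encode the proteins that tie stress fibres to the matrix. With etoposide 14 were lower in Null MEFs and 1, Ptk2, higher, with a median log2 fold change of -1.26, and all 15 were lower in DKO MEFs, with a median of -1.50. Itga5, an integrin chain, and Fhl2, a cofactor at adhesions, changed by -1.96 and -1.90 in Null MEFs, and Fhl2 and Tgfb1i1 by -3.14 and -2.17 in DKO MEFs. Ptk2, the focal adhesion kinase, rose by 0.41 in Null MEFs. Without etoposide 11 were higher and 2 lower in DKO MEFs, and after it 11 were higher and 3 lower, with medians of 0.48 and 0.47. Fhl1 was higher by 2.83 and 2.32 and Tln2 by 2.02 and 1.23. The count of 0 higher genes in DKO MEFs was also 0 at an unadjusted p, with DESeq2 and with limma-trend. The lower genes were Ptk2 (-0.23) and Tln1 (-0.12) without etoposide and, with the largest falls after it, Ptk2 (-1.06) and Fhl2 (-0.83). Tln1 was not past the threshold without Null control replicate 3 (-0.10) or DKO control replicate 1 (-0.09).

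**Figure D5:**
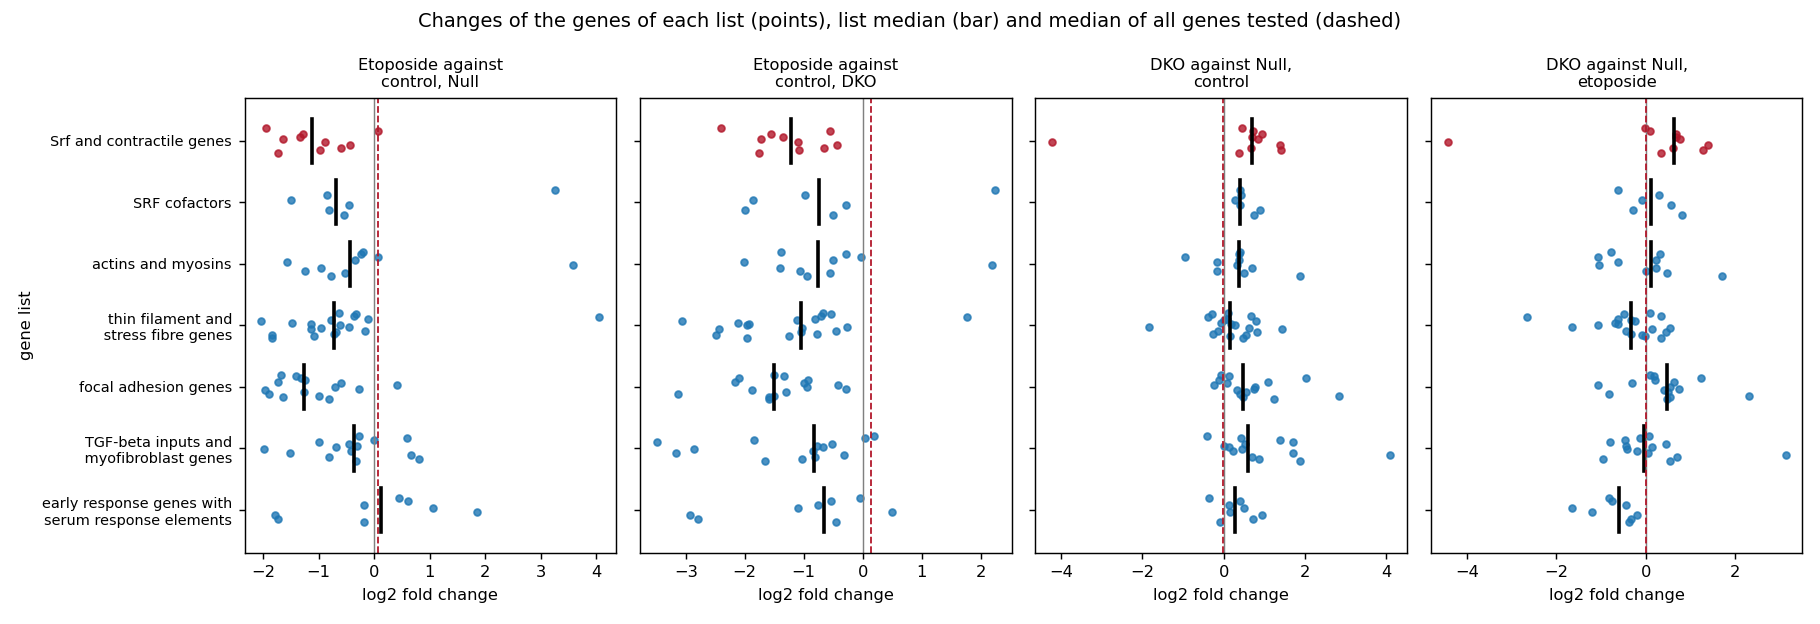
Log2 fold changes of single genes (points) for the 10 genes and the 6 pathway lists in the 4 comparisons between groups, with the median of each list as a bar and the median of all genes tested dashed. With etoposide in DKO MEFs the median of each list lies below that of all genes, and in Null MEFs that of the early response genes does not.

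The TGF-beta list, which holds inputs to the contractile state and genes of myofibroblasts, counted 14 genes. With etoposide 3 were higher and 10 lower in Null MEFs, with a median of -0.37, and 1 higher and 12 lower in DKO MEFs, with a median of -0.83. Smad3, which carries TGF-beta signals to the nucleus, changed by -1.99 in Null MEFs, and Tgfb2, a ligand, by -3.49 in DKO MEFs. Cyr61 and Postn rose by 0.80 and 0.66 in Null MEFs, and Tgfbr2 by 0.20 in DKO MEFs. Without etoposide 12 were higher and 1 lower in DKO MEFs, with a median of 0.61, and after it 5 were higher and 7 lower, with a median of -0.04. Postn, periostin of the matrix, was higher in DKO MEFs by 4.10 and 3.13, Ctgf by 1.88 without etoposide and Fn1, fibronectin, by 0.71 after it. Tgfbr2 had a log2 fold change of -0.41 without etoposide, and Cyr61 and Tgfb2 had -0.95 and -0.80 after it.

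The 8 early response genes with serum response elements belong to the group that SRF drives with the Elk factors. In Null MEFs 4 were higher and 3 lower with etoposide, with a median of 0.13, and in DKO MEFs 1 was higher and 6 lower, with a median of -0.65. Fos rose by 1.85 in Null MEFs and 0.49 in DKO MEFs, and Fosb by 1.06 in Null MEFs, while Egr3 changed by -1.78 and -2.93 and Egr2 by -1.74 and -2.79, as log2 fold changes. Without etoposide 5 were higher and 1 lower in DKO MEFs, with a median of 0.28, among them Egr3 by 0.95 and Egr2 by 0.73, and Mcl1 differed by -0.35. After etoposide 0 were higher and 6 lower, with a median of -0.59, and the lowest were Fosb (-1.64) and Fos (-1.20). That count of 0 higher was also 0 at an unadjusted p below 0.05 in edgeR, with DESeq2 and with limma-trend.

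The difference of the etoposide changes between the genotypes was past the threshold as lower for 7 of the 8 early response genes, 13 of the 19 thin filament genes, 10 of the 14 TGF-beta genes, 8 of the 15 focal adhesion genes, 4 of the 10 actins and myosins and 2 of the 6 cofactors. It was past it as higher for 0, 1, 1, 2, 0 and 0 genes of these lists, in the same order. Of all 15220 genes tested, 24.7% were lower and 29.9% higher, while lower calls outnumbered higher ones with DESeq2 size factors (4236 lower, 3862 higher) and DESeq2 (4371 lower, 3937 higher). With library size alone the cofactors had 2 higher and 2 lower, the actins and myosins 2 higher and 3 lower and the focal adhesion genes 5 higher and 7 lower. The medians of this difference were -1.10, -0.34, -0.71, -0.24, -0.16 and -0.25. No median of these lists changed its sign in any of the 5 comparisons with DESeq2 size factors or library size alone, but sizes moved. Library size alone took the early response median from 0.28 to 0.16 between the genotypes without etoposide and from 0.13 to 0.30 with etoposide in Null MEFs. In Null MEFs it took the TGF-beta median from -0.37 to -0.20 and that of the actins and myosins from -0.44 to -0.27. The 6 lists hold 73 genes, and 7 of these genes also stand in a list of cell type markers.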

How the data were processed

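The deposited table holds whole counts per gene, which the authors made by aligning read pairs with HISAT2 and counting them on annotated genes, without normalization. Their notes name featureCounts and mm10, while the paper's methods name HTSeq and the summary lines of the table carry HTSeq's names. The strand setting is not stated. The table has 24421 genes and 5 summary lines, which took 36.9 to 46.64% of a library and were left out. Their share was higher after etoposide in each genotype, 41.12 to 44.02% and 45.03 to 46.64% in Null MEFs. In DKO MEFs it was 36.9 to 39.21% and 40.9 to 42.42%, and its part in the results was not tested. Of the symbols, 27 are written like dates, and 4 genes share a symbol with another. These were used as they are.

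In R 4.3.3 with edgeR 4.0.16, genes kept by filterByExpr with the 4 groups entered 1 glmQLFit model after TMM scaling, with all 12 libraries, the group as factor and replicates unpaired. The 5 comparisons were tested with glmQLFTest and Benjamini-Hochberg adjustment at 0.05. The F statistic of each log2 fold change gave its standard error. Positions and exon lengths are from GENCODE M21 on GRCm38, and promoter windows from RefSeq. The fits were tested on simulated data with 200 changed genes.

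The 10 genes and the gene lists were chosen with earlier results of these data known. From each of the 6 pathway lists, and for each comparison between groups, the 2 genes that rose most and the 2 that fell most are named, if called, averaging 5 CPM or more and without overlap of libraries. The SRF cofactors, Actb and Actg1 are named whatever their values. A further list fixed beforehand and 1 gene that this rule names are not reported here. Names given for a list count of 1 were chosen after their values were seen, as were the markers given singly.

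Alternatives were DESeq2 1.42.0, limma-trend of limma 3.58.1 with robust estimates as in the study, DESeq2 size factors, library size alone, no filter, a stricter filter of a mean of at least 1 CPM, the replicate number as a block, only the 6 libraries compared, and each library left out in turn.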

Additional observations from a re-analysis of the deposited data

Results flagged for a closer look

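The change with etoposide differed between Null and DKO MEFs, by the test of the difference itself, for 4 of the 10 genes. The difference of the log2 fold changes, DKO less Null, was -0.62 for Tpm2, which fell in DKO MEFs and was not past the threshold in Null MEFs. It was -0.46 for Vcl and -0.28 for Tpm1, which fell further in DKO MEFs. For Acta2 it was -0.11, with an edgeR adjusted p of 0.045 that passed the threshold narrowly, and it was 0.00 with library size alone. For the other 3 genes the difference kept its sign and stayed past the threshold under all alternatives run, with ranges from -0.68 to -0.51 for Tpm2, from -0.52 to -0.35 for Vcl and from -0.34 to -0.17 for Tpm1. Over all genes tested, 24.7% were past the threshold in the same direction and 29.9% in the other. Of the 10 fibroblast markers, 4 were lower and 2 higher by the same test, with a median of -0.27. Of the 6 smooth muscle markers outside the 10 genes, 4 were lower and 0 higher, with a median of -1.20. The part of these markers in the result was not tested.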

How the results depend on the processing

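Over the alternatives, the counts of the 10 genes past the threshold stayed close to those reported. In Null MEFs the count higher with etoposide went from 0 to 1 with DESeq2, DESeq2 size factors, library size alone and the stricter filter, the gene being Tpm2 with log2 fold changes of 0.10, 0.10, 0.23 and 0.14 (adjusted p = 0.0024, 0.0099, 1.3e-05 and 0.001, and up to 0.52 over all alternatives). The cause was not tested. The count lower there was 8 or 9 throughout, and the count lower in DKO MEFs 9 or 10. Without etoposide 8 or 9 genes were higher in DKO MEFs, and after it 6 to 8, with 1 lower in both cases in all alternatives. The difference of the etoposide changes was past the threshold as lower for 3 to 5 genes. Of 745 alternative values of the 10 genes, 701 kept their direction and their side of the threshold or were below it both times, 36 lost the call, 8 gained it and 0 called values reversed. Of 1555 values of the other named genes, 1526 kept theirs, 13 lost and 15 gained a call, and 1 reversed, the difference of the changes of Actb, which was 0.08 with library size alone (adjusted p = 0.04).

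With the replicate block, in which replicate numbers are treated as pairs, 8 genes were lower with etoposide in Null MEFs and 10 in DKO MEFs, 9 and 8 were higher in DKO MEFs without and after etoposide, 1 was lower each time, 0 were higher with etoposide in either genotype, and the difference was past the threshold for 4 lower and 0 higher. Actg2 in Null MEFs lost its call (adjusted p = 0.054). Beyond their groups, libraries of the same number in different groups had r between -0.032 and 0.043 for the 18 pairs, against -0.047 to 0.048 for other numbers. The library of another group most like a given library bore the same number in 19 of 36 cases, with 3 to choose from. The model had no block because the study names none, and no r of a same-number pair was over 0.1.

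Actg2 has few counts. Its calls in Null MEFs and after etoposide were each lost in 8 of 13 alternatives, among them DESeq2, DESeq2 size factors and only the 6 libraries compared, and library size alone ended its calls with etoposide in both genotypes and no filter its call after etoposide. Under the stricter filter it was not tested and has no value. With etoposide in Null MEFs it was not past the threshold without Null control replicate 3 (-0.41), Null etoposide replicate 1 (-0.48) or Null etoposide replicate 2 (-0.63), between the genotypes without etoposide not without Null control replicate 1 (0.55), Null control replicate 2 (0.63) or DKO control replicate 1 (0.63), and after etoposide not without Null etoposide replicate 1 (0.49) or 2 (0.64) or DKO etoposide replicate 2 (0.56) or 3 (0.61). Tpm2 after etoposide lost its call without Null etoposide replicate 1 (0.07) and DKO etoposide replicate 1 (0.09) or 3 (0.06), and with DESeq2, DESeq2 size factors, no filter and the stricter filter. Acta2's difference of -0.11 lost its call in 8 of 19 alternatives, among them 7 single libraries left out (-0.08 to -0.12). Cnn2's difference gained a call with DESeq2, DESeq2 size factors, the stricter filter and without Null etoposide replicate 1 (-0.12), and Cnn1 in Null MEFs lost its call with limma-trend at an unchanged log2 fold change (-0.88, adjusted p = 0.12). Without DKO etoposide replicate 2, which held 9 counts of Cnn1, its difference was 0.21 in place of -0.22, and without DKO etoposide replicate 3 it was -0.93 (adjusted p = 0.052). Of the pathway lists, the count higher with etoposide went from 1 to 2 with library size alone for the actins and myosins in each genotype and for the TGF-beta and early response genes in DKO MEFs, and with DESeq2 size factors for the actins and myosins in Null MEFs. For the difference of the changes, DESeq2 size factors gave 1 higher in place of 2 for the focal adhesion genes and 0 in place of 1 for the thin filament genes. Of the 5 genes most like Srf, 4 stayed among the 5 with library size alone, and 1 of the 5 most like Acta2. Counts were low for Actg2, Myocd and, in DKO MEFs, Cnn1, and whether depth limits their values was not tested.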
